A study of Bos taurus with 38 samples.

Results

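The livers of feed-efficient Holstein and Jersey dairy cows were compared by RNA-Seq, using 20 of the 38 libraries of the series, those of its 10 low-RFI cows among 19 cows. Residual feed intake (RFI) is the feed a cow eats beyond what is predicted from her milk, weight and stage of lactation, so a lower RFI, labelled as high feed efficiency, means less feed than predicted. The groups were formed by rank within selection blocks, so a low-RFI cow need not have eaten less than predicted. The groups were 5 low-RFI Holsteins (cows 1, 6, 11, 16 and 19) and 5 low-RFI Jerseys (cows 5, 8, 10, 14 and 17), all lactating cows of a single research herd. Each breed held 2 cows of parity 1, 1 cow of parity 2 and 2 cows of parity 3. Every cow was biopsied on both diets of a crossover, after the control (C, low concentrate) ration and after the high concentrate (HC) ration, and the counts of her 2 libraries were summed, so the cow was the replicate. RFI was estimated in a model that allowed for breed, so low RFI was relative to each breed. The 9 high-RFI cows (4 Holsteins and 5 Jerseys) were used only to see whether a breed difference was present in other animals.

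As background, the liver of a lactating cow oxidises mobilised fat in mitochondria and peroxisomes, releases ketone bodies and converts cholesterol to bile acids. Holsteins are the larger breed with the higher milk volume, and Jerseys give milk richer in fat.

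Per library, between 18551055 and 20804568 read pairs were counted on genes in the Holsteins and between 18039897 and 24478289 in the Jerseys. The counts table pairs Ensembl identifiers with no gene symbol, and symbols were available only for 77 identifiers that the study listed because RFI groups differed in these same cows. Of these, 74 passed the expression filter. They are therefore no unselected sample of the liver, and their share of breed differences is not independent evidence of a breed difference. Hepatocyte, macrophage, blood and vessel markers could not be paired with identifiers (2 of 61 markers were), so the tissue could be checked only by single genes: CYP7A1, an enzyme of hepatocytes, was at 65.4 to 363 CPM (the count of a gene scaled to the same library total in each cow) in every cow. In bulk tissue, fewer cells of a type and less RNA per cell cannot be told apart.

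A group of 4 libraries stood apart from the rest. In pairwise comparisons of log2 CPM, the median correlation with the other 19 libraries was 0.956 to 0.964 for Holstein 16 HC, Jersey 14 HC, Jersey 5 C and Jersey 10 C, and 0.971 to 0.976 for the other 16. The labels of Jersey cows 10 and 17 also went against the data. Among 16 genes that were either on or off in the Jersey libraries, both libraries of cows 5, 8 and 14 were alike at 16 of 16. So were those of all 5 Holsteins at 16 genes chosen in that breed. Libraries of different Holsteins were alike at 8 to 13. Those of different Jerseys were alike at 7 to 14, leaving out cow 10 against cow 17, and at 12 to 14 among cows 5, 8 and 14. The C and HC libraries labelled cow 10 were alike at only 12 genes, and so were those labelled cow 17, which is within the range of different Jerseys. The 2 C libraries of these cows were alike at 16 of 16, and the 2 HC libraries too. Both labels name low-RFI Jerseys, so the breed groups keep the same libraries whichever way they are paired. The parity, the sums and the changes between diets of these 2 cows are uncertain. Every pair of libraries within a breed differed by more than sampling noise (chi-square per degree of freedom of at least 17.2).

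The breeds were largely but not fully separated by overall expression. The first principal component of the 10 cows held 21.6% of the variance, with Holsteins between 5.58 and 18.4 and Jerseys between -24.2 and 7.43. Jersey cow 14 alone fell inside the Holstein range (two-sided exact permutation test, p = 0.0159). On the second component, with 16.3% of the variance, the breeds were mixed (exact permutation test, p = 0.437).

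**Figure D1:**
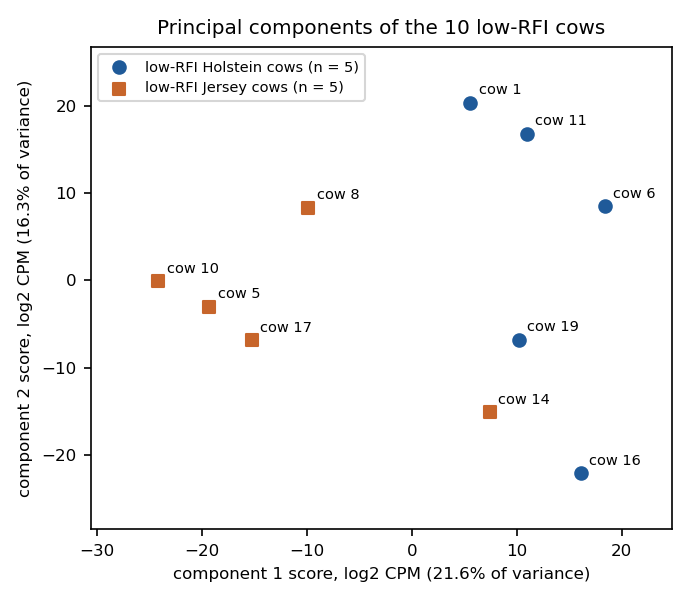
Scores of the 10 low-RFI cows on the first 2 principal components of log2 CPM (21.6% and 16.3% of the variance), circles for Holsteins and squares for Jerseys, 1 point per cow. Along the horizontal axis 4 of the 5 Jerseys lie left of every Holstein, and cow 14 lies among the Holsteins.

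By edgeR on summed libraries, few genes differed between the breeds beyond the spread among cows. Of 11974 genes tested, 26 (0.217%) passed an adjusted p under 0.05 (edgeR quasi-likelihood test with Benjamini-Hochberg adjustment), 12 of them (0.100%) higher in Holsteins and 14 (0.117%) higher in Jerseys. The count depended on the method, with 217 genes called by DESeq2's Wald test and 137 by limma-voom on the separate libraries. The limma-voom fit took the 2 libraries of a cow as nearly independent (consensus correlation 0.0484). On simulated data without change, DESeq2 made 17 false calls and edgeR made none. Those data were drawn with the spread that edgeR itself had fitted, and had no libraries that stand apart. They therefore cannot tell which calls in the real data are false. At an unadjusted p under 0.05 there were 1260 genes (10.5%), 629 (5.25%) higher in Holsteins and 631 (5.27%) higher in Jerseys. The cows of the breeds did not overlap for 296 genes (2.47%), 154 (1.29%) higher in Holsteins and 142 (1.19%) higher in Jerseys. The median absolute log2 fold change over all genes was 0.10, whereas the 26 genes spanned 0.44 to 2.39 in size, and 15 of them differed by over 2-fold. These 26 passed close to the threshold, with adjusted p from 0.0356 to 0.0491, and the number of genes called fell to between 0 and 18 when 1 cow was left out. No gene was called without Holstein cow 1 (lowest adjusted p = 0.0503) or Holstein cow 16 (lowest adjusted p = 0.0592), and 18 were called without Jersey cow 14. In each of these 10 fits all 26 genes kept their direction, with a highest unadjusted p of 0.00053 (edgeR). The genes were chosen with all 10 cows, so this follows largely from the choice and is no test. Without the 4 libraries that stood apart, no gene was called, against 1927 at an unadjusted p under 0.05. Cow 14 then entered only through Jersey 14 C, which lay within the range of the Holstein libraries for most called genes. This fit therefore cannot tell whether the calls rested on the 4 libraries.

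**Figure D2:**
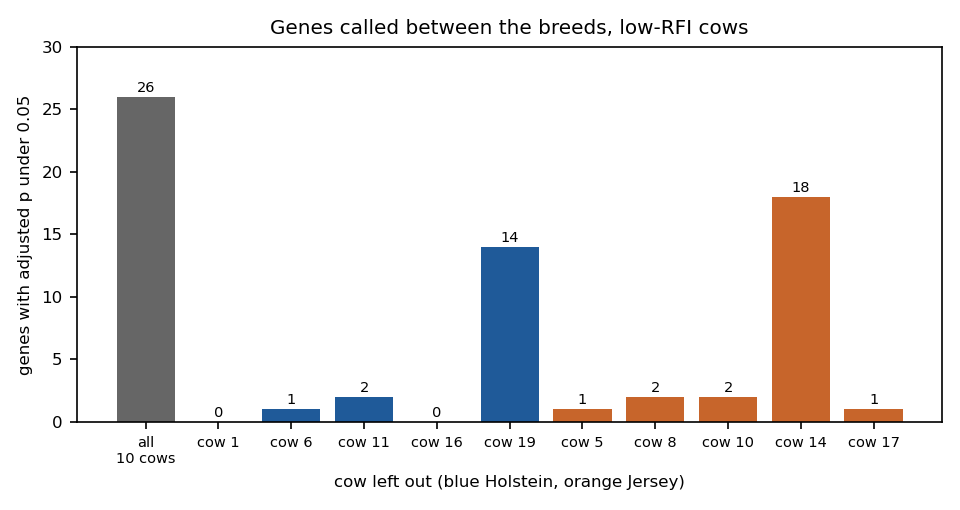
Number of genes with an adjusted p under 0.05 between the breeds (edgeR) with all 10 low-RFI cows (grey) and with each cow left out (blue for a Holstein, orange for a Jersey). The bars run from 26 with all cows to 0 without cow 1 or cow 16, and only the fits without cow 14 or cow 19 call more than 2 genes.

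In 24 of the 26 genes the cows of the breeds did not overlap, and the direction was the same within each of the 5 selection blocks (each with 1 low-RFI cow of either breed) in all 26. Both follow largely from how the genes were chosen, and a fit with the block in place of parity called 0 genes (1253 at an unadjusted p under 0.05, edgeR). Only 1 of the 26 had a symbol, BDH2, and 6 were below 5 CPM in both breeds. Of the others, the 2 with the smallest p in each direction are given by identifier. ENSBTAG00000048275 averaged 88.2 ± 13.2 CPM (SD, n = 5) in Holsteins and 51.9 ± 6.4 in Jerseys (log2 fold change 0.76, SE 0.09, adjusted p = 0.0356). Within Jerseys it ranged from 21.5 CPM in Jersey 10 C, which stood apart, to 96.7 in Jersey 14 C, which did not. Without the 4 libraries that stood apart (Jersey 14 C kept), its log2 fold change was 0.44 (adjusted p = 0.22). ENSBTAG00000047248 averaged 3.45 ± 0.37 and 1.72 ± 0.22 CPM. ENSBTAG00000045854 and ENSBTAG00000034349 were higher in Jerseys, at 5.2 ± 0.96 against 2.10 ± 0.84 CPM (log2 fold change -1.35) and at 18.1 ± 3.79 against 7.26 ± 1.63 CPM (log2 fold change -1.32). The absence of overlap is by cow, not by library. Jersey 14 C lay within the range of the Holstein libraries for most called genes. These included the identifiers above, in order at 96.7, 4.05, 2.81 and 8.34 CPM. Jersey 14 HC was at 32.0, 0.555, 6.90 and 17.4 CPM. For BDH2, Jersey 14 C was at 66.4 CPM, against at least 68.6 in the Holstein libraries.

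BDH2 encodes a cytosolic dehydrogenase named for its action on 3-hydroxybutyrate, the main circulating ketone body of cows. It was higher in Holsteins. The cows were at 83.7, 71.9, 92.5, 87.3 and 83.3 CPM (Holsteins 1, 6, 11, 16 and 19) and at 33.4, 34.8, 31.4, 56.0 and 33.6 CPM (Jerseys 5, 8, 10, 14 and 17). The breeds did not overlap, 4 Jerseys lay close together, and cow 14 was the Jersey nearest to the Holsteins. The mean was 83.7 ± 7.56 CPM in Holsteins and 37.8 ± 10.2 in Jerseys (SD over 5 cows each), and the fitted log2 fold change was 1.16 (SE 0.14; edgeR adjusted p = 0.0356). An exact permutation test over cows gave p = 0.00794, the smallest it can give. Any gene whose cows do not overlap between the breeds gives this value, so it adds nothing to the absence of overlap. The log2 fold change was 1.19 on the C and 1.10 on the HC libraries, and was 1.06 to 1.32 with each cow left out, with an adjusted p under 0.05 only without cow 14 (0.00175) or cow 19 (0.0354).

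BDH2 was listed by the study for a difference between RFI groups in Holsteins, so its level in high-RFI cows (normalised over all 19 cows) is given as a value. High-RFI Holsteins averaged 54.8 ± 1.99 CPM (n = 4) and high-RFI Jerseys 46.5 ± 13 (n = 5), so their log2 fold change was 0.32 with an SE of 0.20 (adjusted p = 0.535). The low-RFI Holsteins were thus the highest of the 4 groups, and the low-RFI Jerseys the lowest.

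The listed genes of peroxisomal oxidation, HSD17B4, ACOT8 and HACL1, were at higher means in Jerseys, without passing the adjusted threshold. HSD17B4, the peroxisomal bifunctional enzyme that acts on very long and branched fatty acids and on bile acid precursors, was at 651, 572, 585, 699 and 620 CPM in the Holsteins and at 949, 954, 882, 789 and 940 CPM in the Jerseys (cows in the same order). Every Jersey was above every Holstein (log2 fold change -0.53, SE 0.09, adjusted p = 0.0573). In high-RFI cows its log2 fold change was -0.26. ACOT8, a peroxisomal acyl-CoA thioesterase, averaged 13.4 ± 2.3 CPM in Holsteins and 21.2 ± 6.85 in Jerseys (adjusted p = 0.323). HACL1, a lyase of peroxisomal alpha-oxidation, averaged 292 ± 50.3 and 328 ± 39.7 CPM, with overlapping cows.

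**Figure D3:**
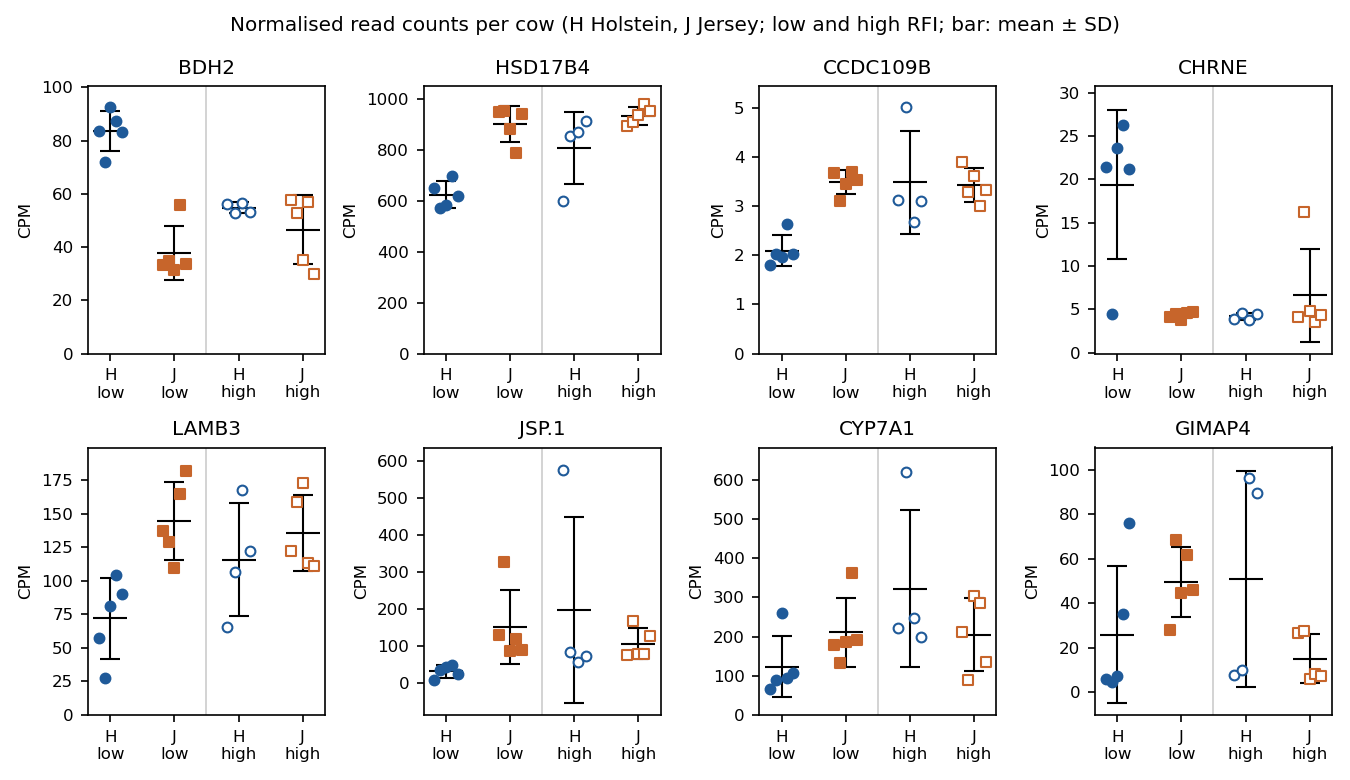
CPM per cow of 8 named genes, with a panel for each and linear axes. Filled points are low-RFI and open points high-RFI cows, circles Holsteins (H) and squares Jerseys (J), and bars give the mean ± SD. Low-RFI Holsteins and Jerseys are fully apart for BDH2, HSD17B4, CCDC109B, LAMB3 and JSP.1, Holstein cow 6 sits with the Jerseys for CHRNE, and the breeds overlap for CYP7A1 and GIMAP4.

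Of all 74 listed genes with a symbol that were tested, 36 (48.6%, against 10.5% of all genes) had an unadjusted p under 0.05, 17 higher in Holsteins and 19 in Jerseys. The breeds did not overlap for 13 (17.6%, against 2.47% of all genes; 6 and 7), and 1, BDH2, passed the adjusted threshold. The fitted level was higher in Holsteins for 41 and in Jerseys for 33, with a median log2 fold change of 0.04, against -0.003 over all genes. The groups of function below were formed after their values were seen, so their counts are descriptions only, to be read against 10.5% of all genes at an unadjusted p under 0.05 and 2.47% without overlap.

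Bile acid and steroid genes were at higher fitted levels in Jerseys in 5 of 5 cases, as were 6094 of the 11974 genes tested. Of these 5, 2 had an unadjusted p under 0.05 (10.5% of all genes). In high-RFI cows 2 of the 5 kept the direction, and the median log2 fold change of the 5 was 0.22. CYP7A1, the rate-limiting enzyme of bile acid synthesis, was at 65.4, 90.3, 259, 93.3 and 107 CPM in the Holsteins and at 180, 134, 186, 363 and 191 CPM in the Jerseys. Holstein cow 11 and Jersey cow 14 stood far above the other cows of their breeds, and the groups overlapped (log2 fold change -0.91, SE 0.29, adjusted p = 0.302). Its difference was -0.35 on the C and -1.5 on the HC libraries. NR1H4, the bile acid receptor FXR, averaged 57.8 ± 5.72 and 67.4 ± 14.8 CPM. FDXR, the reductase that supplies electrons to mitochondrial P450 enzymes, was at 4.33 to 4.97 CPM in 4 Holsteins, at 8.54 in Holstein cow 1 and at 7.63 to 8.54 in the Jerseys (adjusted p = 0.274). CYP3A4, a P450 of drug and steroid oxidation, was 104 ± 7.35 and 107 ± 14.5 CPM (log2 fold change -0.03), and its direction turned without Holstein cow 1 (0.03) or Jersey cow 8 (0.02).

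The 4 genes of fatty acid and glycerolipid synthesis did not share a direction: the 2 of fatty acid synthesis were at higher means in Jerseys and the 2 acyltransferases in Holsteins. ACACA, acetyl-CoA carboxylase, the committed step, averaged 36 ± 13.3 CPM in Holsteins and 42.7 ± 8.50 in Jerseys (log2 fold change -0.31, adjusted p = 0.423), and the Jersey was higher in all 5 selection blocks. The fatty acid elongase ELOVL6 averaged 39.3 ± 10.3 and 42.7 ± 12.7 CPM. DGAT2, which makes the last step to triglyceride, averaged 29.8 ± 3.79 and 24.2 ± 4.85 CPM (log2 fold change 0.30, adjusted p = 0.451). MBOAT2, a lysophospholipid acyltransferase, averaged 11 ± 4.17 and 9.09 ± 5.80 CPM.

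The 2 genes of amino acid synthesis leaned in opposite directions. ALDH18A1, which makes the proline precursor pyrroline-5-carboxylate, was at 14.8 to 20.1 CPM in the Holsteins and at 20.7 to 29.1 in the Jerseys, without overlap (log2 fold change -0.44, SE 0.12, adjusted p = 0.237). CTH, cystathionine gamma-lyase, which makes cysteine, averaged 14.0 ± 2.10 and 11.8 ± 0.85 CPM (adjusted p = 0.485).

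All 3 genes of antigen presentation and interferon response were at higher means in low-RFI Jerseys, each with an unadjusted p under 0.05 (10.5% of all genes) and none past the adjusted threshold. JSP.1, a class I major histocompatibility gene, was at 6.54, 34.2, 41.6, 49.2 and 22.7 CPM in the Holsteins and at 129, 326, 87.1, 118 and 89.2 CPM in the Jerseys, without overlap (log2 fold change -2.20, SE 0.57, adjusted p = 0.218). Within Jersey cow 14 it was at 32.5 CPM in the C and 189 in the HC library. Her C library thus lay in the Holstein range, as it did for most called genes. Class I genes have close copies and differ in sequence between animals, so read pairs may have been split or lost unequally, and their part in the result was not tested. BOLA-A, another class I gene, averaged 20.1 ± 2.60 and 25.6 ± 2.25 CPM (log2 fold change -0.35, adjusted p = 0.202). IFI6, an interferon-induced gene, averaged 5.93 ± 1.13 and 10.8 ± 5.15 CPM (log2 fold change -0.85, adjusted p = 0.335), and its log2 fold change was -0.48 without Jersey cow 14 (29.7 CPM in her HC library) and -0.42 without the 4 libraries that stood apart. In high-RFI cows the log2 fold changes of these genes were 0.62, 0.28 and 0.12.

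The 9 leukocyte genes did not share a direction, with 3 at higher fitted levels in Holsteins and 6 in Jerseys. Of these, 2 had an unadjusted p under 0.05, CR2 (complement receptor of B cells), with 83.0 ± 16.8 and 58.6 ± 14.4 CPM, and GIMAP4, a GTPase of lymphocytes. GIMAP4 was at 6.14, 4.38, 7.23, 35.3 and 76.0 CPM in the Holsteins and at 28.1 to 68.3 in the Jerseys. Holstein cow 16 lay among the Jerseys and cow 19 above them all (log2 fold change -1.76, SE 0.61, adjusted p = 0.343), and in high-RFI cows the log2 fold change was 2.26 (SE 1.15). GIMAP genes are close copies of each other, so their counts are uncertain. The T cell receptor subunit CD3D was at 3.22 ± 0.68 and 4.39 ± 1.40 CPM. NKG7, of natural killer and cytotoxic T cells, was at 9.40 ± 1.59 and 9.59 ± 1.10 CPM. LYZ, lysozyme of macrophages and neutrophils, was at 18.9 ± 5.60 and 17.8 ± 3.79 CPM.

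Among genes of adhesion and matrix, all 3 were without overlap between the breeds, as were 17.6% of the listed genes and 2.47% of all genes. LAMB3, a laminin chain of basement membranes, was at 57.1, 27.8, 81.4, 104 and 89.9 CPM in the Holsteins and at 137, 129, 110, 165 and 182 CPM in the Jerseys (log2 fold change -1.08, SE 0.23, adjusted p = 0.138). It was lower on the HC than on the C diet in all 10 cows as labelled (log2 change -0.47 in Holsteins, adjusted p = 0.187, and -0.50 in Jerseys, adjusted p = 0.0518). CEACAM19, a cell adhesion molecule of the immunoglobulin family, averaged 3.58 ± 1.16 CPM in Holsteins and 1.57 ± 0.50 in Jerseys (log2 fold change 1.17, adjusted p = 0.138). SEMA4G, a semaphorin, averaged 260 ± 15.7 and 232 ± 12 CPM, a small difference (log2 fold change 0.16, adjusted p = 0.434).

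Of the 7 solute transporters and carriers, CCDC109B, the inhibitory subunit of the mitochondrial calcium uniporter, was at 1.80 to 2.63 CPM in the Holsteins and at 3.11 to 3.70 in the Jerseys, without overlap (log2 fold change -0.74, SE 0.13, adjusted p = 0.0618). SLC17A1, a renal and hepatic phosphate and urate transporter, averaged 119 ± 43.4 and 176 ± 26.7 CPM (adjusted p = 0.202). SLC20A1, a sodium-phosphate transporter, averaged 55.2 ± 5.87 and 40.5 ± 7.53 CPM (adjusted p = 0.259).

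CHRNE, the epsilon subunit of the muscle acetylcholine receptor, had the largest log2 fold change towards Holsteins among the listed genes past the filter (2.11, SE 0.36, adjusted p = 0.0691). Holsteins 1, 11, 16 and 19 were at 21.4, 23.6, 26.3 and 21.2 CPM, whereas Holstein cow 6 was at 4.50 and the Jerseys were at 3.81 to 4.69. Cow 6 was thus level with the Jerseys in both of her libraries (4.98 CPM on C and 3.97 on HC). Without cow 6, CHRNE was the only gene called (log2 fold change 2.40, SE 0.10, edgeR adjusted p = 2.67e-05). That fit leaves out the only Holstein at the Jersey level, so its p follows largely from the omission and is no test. In high-RFI cows, 4 of 4 Holsteins were at 3.81 to 4.56 CPM, and 1 of 5 Jerseys was at 16.2. Other genes of muscle, RYR1 (5.62 ± 0.91 and 6.92 ± 0.42 CPM) and MYOM1 (36.1 ± 21.1 and 30.5 ± 15.2 CPM), had overlapping cows.

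REC8, a cohesin subunit of meiosis, was below the filter in these cows because only 4 reached 1 CPM. Holsteins 1, 6, 11 and 16 were at 33.9, 31.5, 62.3 and 11.8 CPM, Holstein cow 19 was at 0.248, and the Jerseys were at 0.0796 to 0.380. So 4 of 5 Holsteins expressed it and the remaining Holstein was at the Jersey level (two-sided exact permutation test, p = 0.0317). This p is unadjusted. The gene was listed for RFI in Holsteins and named after its values were seen, so the p is a description only.

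Among the growth signalling genes, PCSK6, a proprotein convertase that activates TGF-beta family ligands, was at 160 to 173 CPM in the Holsteins and at 112 to 152 in the Jerseys, without overlap (log2 fold change 0.34, SE 0.08, adjusted p = 0.157). FOSL2, a subunit of the AP-1 transcription factor, averaged 8.0 ± 1.28 and 11.8 ± 2.45 CPM (adjusted p = 0.241). SOCS2, the feedback inhibitor of growth hormone signalling, averaged 34.5 ± 15.9 and 34.6 ± 14.6 CPM. UHRF1, which maintains DNA methylation, varied more among cows than between breeds, from 0.505 to 12.7 CPM in Holsteins and from 0.733 to 7.08 in Jerseys.

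Of the remaining 23 tested genes with a symbol, 18 were at higher fitted levels in Holsteins, as were 5880 of the 11974 genes tested. An unadjusted p under 0.05 was found for 11 of the 23 (47.8%, against 10.5% of all genes). ARMC4, a gene of ciliary dynein arms, was at 2.02 to 5.87 CPM in the Holsteins and at 0.783 to 1.96 in the Jerseys (log2 fold change 1.44, adjusted p = 0.138). CDKL4, a protein kinase, was at 2.23 to 4.85 and at 4.96 to 7.57 CPM (log2 fold change -1.0, adjusted p = 0.136). MCTP2 (7.71 ± 1.54 and 5.46 ± 0.75 CPM) and ARHGEF37 (8.36 ± 1.48 and 11.2 ± 1.17 CPM) were also without overlap.

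The breed difference was next compared between the diets, within cows as labelled. The pairing of Jersey cows 10 and 17 is doubtful, since the C and HC libraries of each were alike at only 12 of 16 on/off genes. Their changes between diets, and so the Jersey counts and interactions below, are uncertain to that extent. No gene passed an adjusted p under 0.05 for the interaction of breed and diet (0%), and 775 (6.47%) had an unadjusted p under 0.05 (edgeR, cow as a fixed block). DESeq2 called 19. The following genes were picked after their values were seen, and none passed the adjusted threshold. ALDH18A1 was lower on HC in 5 of 5 Jerseys and higher on HC in 4 of 5 Holsteins (log2 interaction 0.61, adjusted p = 0.662). CYP11A1, the side-chain cleavage enzyme that starts steroid synthesis, was higher on HC in 4 of 5 Holsteins and lower in 4 of 5 Jerseys (log2 interaction 1.38, adjusted p = 0.672). MYOM1 was higher on HC in 5 of 5 Jerseys and in 3 of 5 Holsteins (log2 interaction -1.09, adjusted p = 0.613). CEACAM19 was higher on HC in 5 of 5 Jerseys and in 2 of 5 Holsteins (log2 interaction -0.93, adjusted p = 0.672). CYP7A1 was higher on HC in 3 of 5 Jerseys and in 1 of 5 Holsteins (log2 interaction -1.03, adjusted p = 0.783). The highest Jersey values of CYP11A1 (65.0 CPM in Jersey 10 C) and CYP7A1 (545 CPM in Jersey 14 HC) were in libraries that stood apart, whose part in these interactions was not tested.

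**Figure D4:**
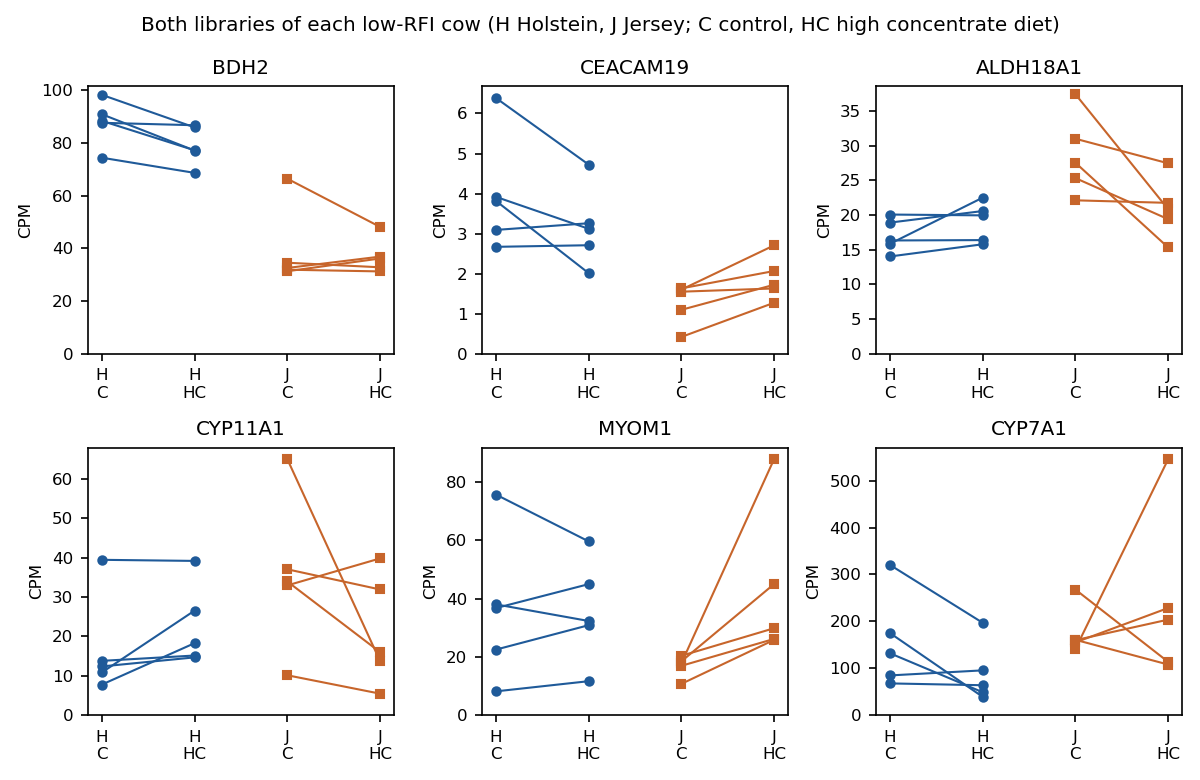
CPM of 6 genes in both libraries of each low-RFI cow, joined by a line from the C to the HC diet, blue for Holsteins (H) and orange for Jerseys (J). BDH2 stays apart between the breeds on both diets, ALDH18A1 falls in all 5 Jersey cows as labelled, and single steep lines, such as CYP7A1 in Jersey cow 14 (141 to 545 CPM), stand out.

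The high-RFI cows, none of which entered the comparison above, gave the same direction for 24 of the 26 called genes (92.3%), against 62.9% of all genes tested. Of the 26, 13 had an unadjusted p under 0.05 in the high-RFI cows, all in the same direction, against 13.4% of all genes, and none passed the adjusted threshold. The 14 genes higher in low-RFI Jerseys had a median log2 fold change of -1.10 there and -0.82 in high-RFI cows, with 10 at an unadjusted p under 0.05. The 12 genes higher in low-RFI Holsteins had medians of 0.93 and 0.45, with 3 at an unadjusted p under 0.05. Since the genes were chosen in the low-RFI cows, their differences there are the larger by choice. The difference of the breed differences was tested in all 19 cows: no gene passed an adjusted p under 0.05 (0%), 629 (5.25%) had an unadjusted p under 0.05 (edgeR), and DESeq2 called 2. For the listed genes with a symbol, 31 of 74 (41.9%) had the same direction in high-RFI as in low-RFI cows, but they were chosen by RFI differences in these cows, so this share is not independent evidence.

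**Figure D5:**
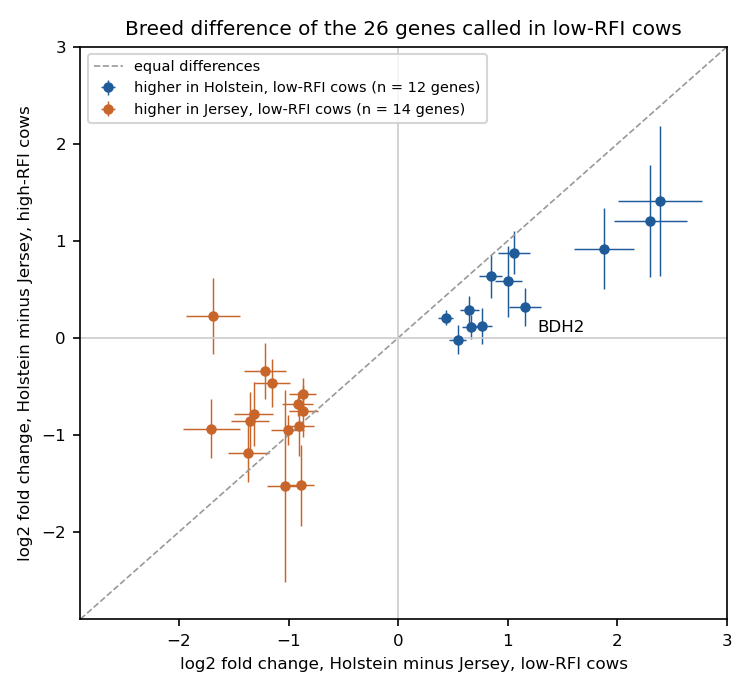
Log2 fold change, Holstein minus Jersey, of the 26 genes called in low-RFI cows (horizontal, ± SE) against the same in high-RFI cows (vertical, ± SE), 1 point per gene, with a dashed line of equal differences. In all, 24 of 26 points lie in the quadrants of the same direction, and all 12 of the genes higher in Holsteins lie below the line.

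Parity, which was equally distributed over the breeds, moved no gene past an adjusted p under 0.05 (0%), with 758 genes (6.33%) at an unadjusted p under 0.05 (edgeR, joint test), and 78 called by DESeq2's likelihood ratio test. Without a parity term, 21 genes were called between the breeds. The parities of cows 10 and 17 are 2 and 1, so their uncertain labels enter this term. Without both cows 1 gene was called between the breeds, and with their HC libraries exchanged 22 were. For BDH2 these fits gave log2 fold changes of 0.95 (adjusted p = 0.155) and 1.16 (adjusted p = 0.0407). The exchange restored no matched pair, since the exchanged pairs were also alike at only 12 of 16 on/off genes. With the libraries of both cows summed by diet and no parity term, chosen after seeing the data, 11 genes were called. BDH2 then had a log2 fold change of 1.14 (edgeR adjusted p = 0.0269).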

How the data were processed

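Liver biopsies were sequenced as read pairs from a stranded mRNA kit, in 1 run over 4 lanes. The authors removed adapters with cutadapt, aligned reads with STAR 2.3.0 to UMD3.1 (Ensembl annotation), allowing at most 5 mismatches, and deposited unnormalized, unfiltered HTSeq counts (read pairs on each Ensembl gene). The HTSeq version and strand setting are not given in the sources used here. Rows that name no gene were left out, which kept 74.9% to 79.9% of read pairs. Low RFI follows the feed efficiency label.

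The 2 libraries of a cow were summed (37250161 to 44567379 read pairs per cow). Genes with at least 1 CPM in at least 5 cows were kept: 11974 of 24616, with 99.9% of read pairs. Breed was tested with parity as a factor by edgeR 4.0.16 (TMM, quasi-likelihood, two-sided, Benjamini-Hochberg over all genes, R 4.3.3), and log2 fold changes are Holstein minus Jersey; SE is the absolute value over the square root of F. CPM are counts scaled by TMM-normalized library size. DESeq2 1.42.0 and limma 3.58.1 gave alternatives. Exact permutation tests reassigned cows. Biopsies of separate cows are the replicates.

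Libraries were paired by the cow number of the labels. Deviations of the 2 libraries of a cow correlated at a mean of 0.452 in Holsteins and 0.0968 in Jerseys.

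On simulated data 200 of 11974 genes were changed in the breed comparison. The counts were drawn once per setting from edgeR's model with the spread that edgeR had fitted to each gene. This setting favours edgeR over DESeq2. EdgeR recovered 20% at a log2 change of 0.5, 92% at 1 and 100% at 1.5, with 1, 13 and 6 false calls, and none without change. DESeq2 recovered 113, 194 and 200 of the 200 genes, with 22, 46 and 33 false calls, and made 17 false calls without change. Members, lists and tests were chosen with earlier results of these data known. The rule for names took called genes with a symbol, the smallest p of each list of pathway genes, and 2 identifiers per direction; other genes were named after their values were seen. The 16 pathway lists were void, since 11 of 232 members were paired with an identifier. Symbols came from the study's supplementary lists (identifiers only).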

Additional observations from a re-analysis of the deposited data

Results flagged for a closer look

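Among 78 named genes and both breeds (156 groups of 5 cows), 15 groups held a cow whose gap to the nearest other cow was over 0.71 of the range of the group, where chance gives about 1 in 20 groups. Jersey cow 14 was highest for BDH2 (56.0 CPM, the others at most 34.8) and CYP7A1 (363 CPM, the others at most 191). Jersey cow 8 was highest for JSP.1 (326 CPM) and RASEF (8.04 CPM), and Jersey cow 5 for SLA (8.07 CPM). Holstein cow 1 was highest for CYP11A1 (39.3 CPM), FDXR (8.54 CPM) and EXTL2 (2.47 CPM). Holstein cow 6 was lowest for CHRNE (4.50 CPM). Holstein cow 11 was highest for CYP7A1 (259 CPM) and RASEF (5.00 CPM), and Holstein cow 16 for CCDC109B (2.63 CPM) and SLC25A34 (10.2 CPM). Holstein cow 19 was highest for GIMAP8 (104 CPM) and lowest for ACOT8 (9.48 CPM). Cows 10 and 17 stood apart for none of these genes.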

How the results depend on the processing

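The breed comparison called 26 genes. It called 26 with DESeq2's size factors, 21 without parity and 22 with the HC libraries of cows 10 and 17 exchanged. The exchange restored no matched pair of libraries. It called 46 without a filter on low counts, 217 with DESeq2's Wald test, 0 with the selection block in place of parity (1253 at an unadjusted p under 0.05, edgeR), 1 on C libraries, 14 on HC libraries and 1 without cows 10 and 17. When libraries were kept separate and limma-voom took cows as random (a replicate block), 137 genes were called, 22 of the 26 among them, at a consensus correlation of 0.0484. Alternatives chosen after seeing the data gave 11 with the libraries of cows 10 and 17 summed by diet, 0 without these cows and without parity (869 at an unadjusted p under 0.05), 0 without the 4 libraries that stood apart, and 30 with the filter at 4 cows. Leaving out each cow gave 0 to 18. The cause of these shifts was not tested. For breed by diet, DESeq2 with cows as fixed effects (a replicate block) called 19 genes, the fit with no replicate block 0 (673 at an unadjusted p under 0.05), and leaving out each cow 0 to 7, with 7 without cow 8. In high-RFI cows 12 genes were called, 314 with DESeq2, 38 without parity (31 higher in Holsteins) and 0 to 12 with each cow left out. For breed by RFI DESeq2 called 2, and for parity DESeq2 called 78, the fit without cows 10 and 17 called 1 and leaving out each cow 0 to 1. BDH2 kept its direction in all alternatives (log2 fold change 0.95 to 1.32), and its adjusted p was under 0.05 in 2 of the 10 fits without a cow and in 9 of the other 14 alternatives. ENSBTAG00000048275, ENSBTAG00000047248, ENSBTAG00000045854 and ENSBTAG00000034349 kept their direction too. At these depths genes near 1 CPM rest on few read pairs, and log2 differences near 0.5 were mostly missed by edgeR in simulation.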
